A study of Mus musculus with 10 samples.

Results

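This report follows 33 marker genes of cells other than macrophages through RNA-seq of purified tumour-associated macrophages. They were a given list of markers for 7 kinds of cell, and 33 of the 33 were found by symbol and Entrez identifier among the 36528 genes of the deposited tables. The C57Bl/6 mice carried tumours of MC-38, a mouse colon carcinoma line. One group of 5 libraries came from mice given an antibody against MerTK, a receptor that macrophages use to take up dying cells. The other 5 came from mice given an antibody against gp120, an HIV envelope protein, as the comparison group. All libraries were taken 24 h after treatment from polyadenylated RNA. Whether each library came from its own mouse or from a pool is not in the labels, so the p-values cover no more than the spread among these samples, which may be technical. Libraries were numbered in accession order, and the numbers do not pair them.

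Purified macrophages can carry some RNA of other cells of the tumour, and a low count of another lineage's marker is called a trace here. Lineage markers are used to look for such RNA, and many of them encode parts of a complex. The T cell receptor signals through CD3 chains, the B cell receptor through the pair CD79A and CD79B, and type I collagen is built from the products of Col1a1 and Col1a2. A marker found without its partners is therefore read differently from a full set, and some single markers are also transcribed by myeloid cells.

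The libraries held 33159858 to 46108687 counted reads. The cells carried the transcripts of the labelled type: all 12 macrophage markers were detected in every library, with Csf1r, the receptor for colony stimulating factor 1, at 386 to 579.6 nRPKM, a level per gene length and library size. Adgre1, which encodes F4/80, lay between 505.9 and 717.8 nRPKM and Mertk between 14.1 and 21.1 nRPKM. The 33 members together made up 0.0207% to 0.0322% of the counts of a library, against 3.97% to 4.90% for the 12 macrophage markers. In bulk samples such as these, fewer cells of a type and less RNA per cell cannot be told apart.

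The members split by level into 4 genes above 5 nRPKM in every library and 29 that reached at most 4.18 nRPKM. That line was drawn after the values were seen. The 4 abundant genes were Cd79b, Csf3r, Pecam1 and Cdh1, which held 71.3% to 92.9% of the members' counts. The median over all 13588 tested genes was 5.35 nRPKM. Of the 33 members, 23 had a count in every library and 43 of 330 combinations of gene and library were at 0. A count of 0 allows a level of up to 0.0680 to 0.0926 CPM (read counts relative to library size), taken as 3 counts in a library, and this limit covers counting error only.

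**Figure D1:**
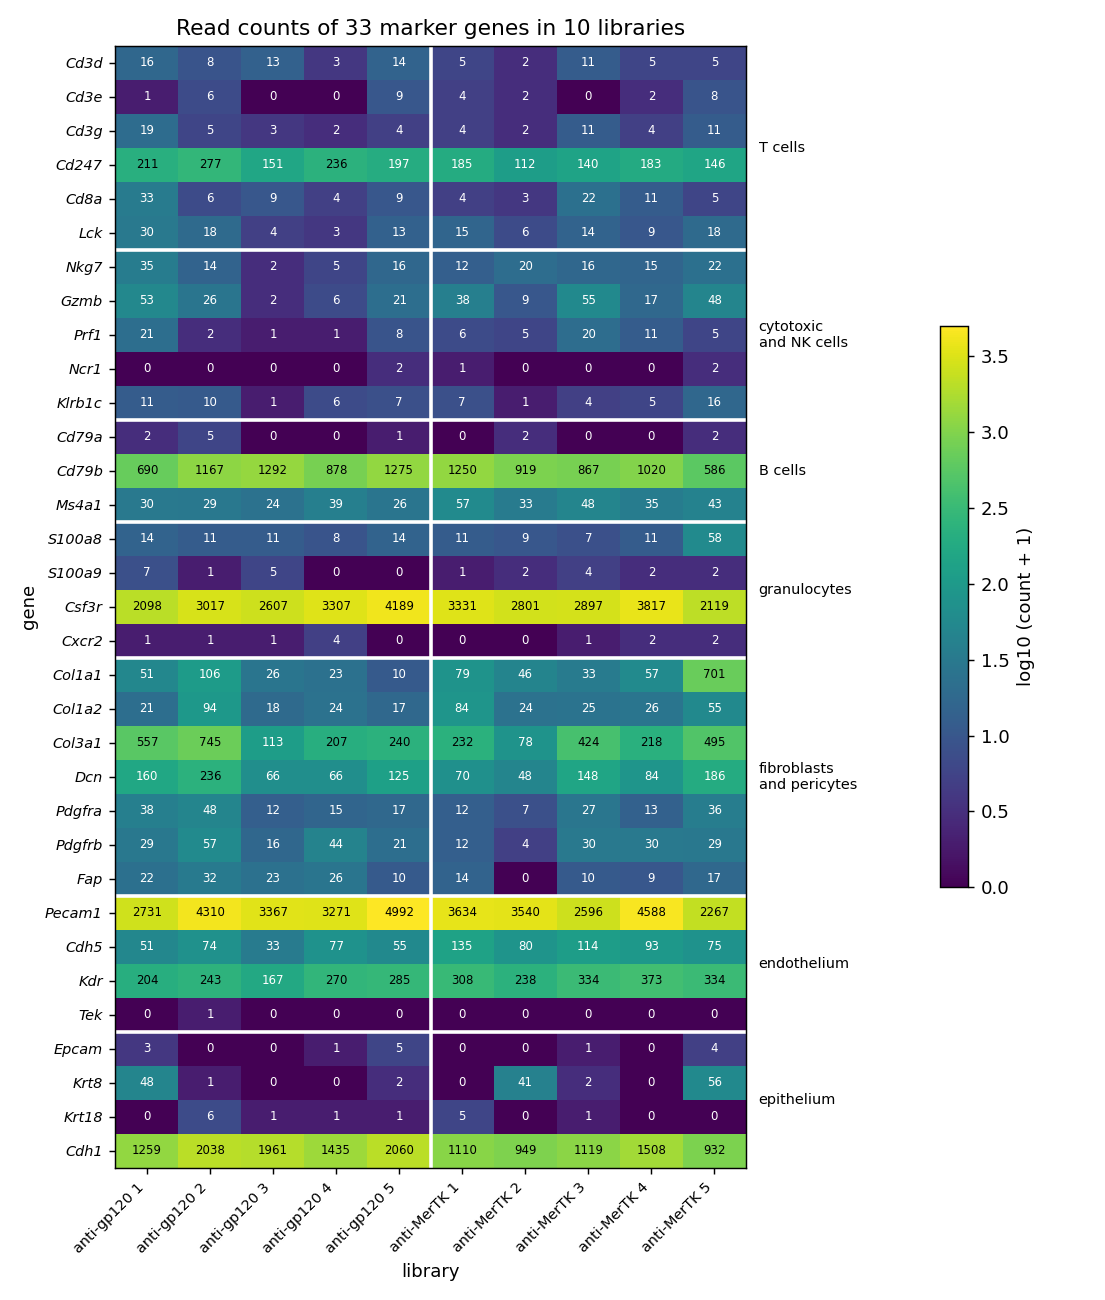
Read counts of the 33 markers (rows, grouped by kind of cell) in the 10 libraries (columns, anti-gp120 on the left), coloured by log10 of the count plus 1. Cd79b, Csf3r, Pecam1 and Cdh1 stand out as even bright rows, while the bright cell of Col1a1 in anti-MerTK library 5, at 701 counts, has no match in its row.

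The question put to these markers was whether they followed treatment, and 2 of them did so in the test: Cdh1 and Cd247 fell after anti-MerTK. Cdh1, which encodes E-cadherin, was 1.65-fold lower, and Cd247, which encodes the CD3 zeta chain, was 1.47-fold lower. In none of the 7 kinds of cell did more than 1 member pass, but few could. The filter on low counts left 7 fibroblast and pericyte members to test and 1 to 3 of each other kind. Cdh1 was the only epithelial member tested. Of the 33 members, 19 passed the filter on low counts, 0 were higher and 2 were lower in edgeR's quasi-likelihood test (two-sided, Benjamini-Hochberg adjusted p under 0.05 over all tested genes). Over all 13588 tested genes 3.22% were called, 1.85% higher and 1.38% lower. The median log2 fold change was -0.19 over the 19 tested members and -0.01 over all tested genes. An unadjusted p under 0.05 was reached by 6 members (20.9% of all tested genes). DESeq2 called 3 members, of which Cdh5 was higher, and 1152 over all genes, 601 of them higher. It gave no adjusted p for Lck, Nkg7, S100a8, Col1a1 and Fap. The groups did not overlap for 3 of the 19, Cdh1 and Cd247 on the low side and Cdh5 on the high side, against 5.97% of all tested genes (3.26% on the high side and 2.71% on the low side).

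**Figure D2:**
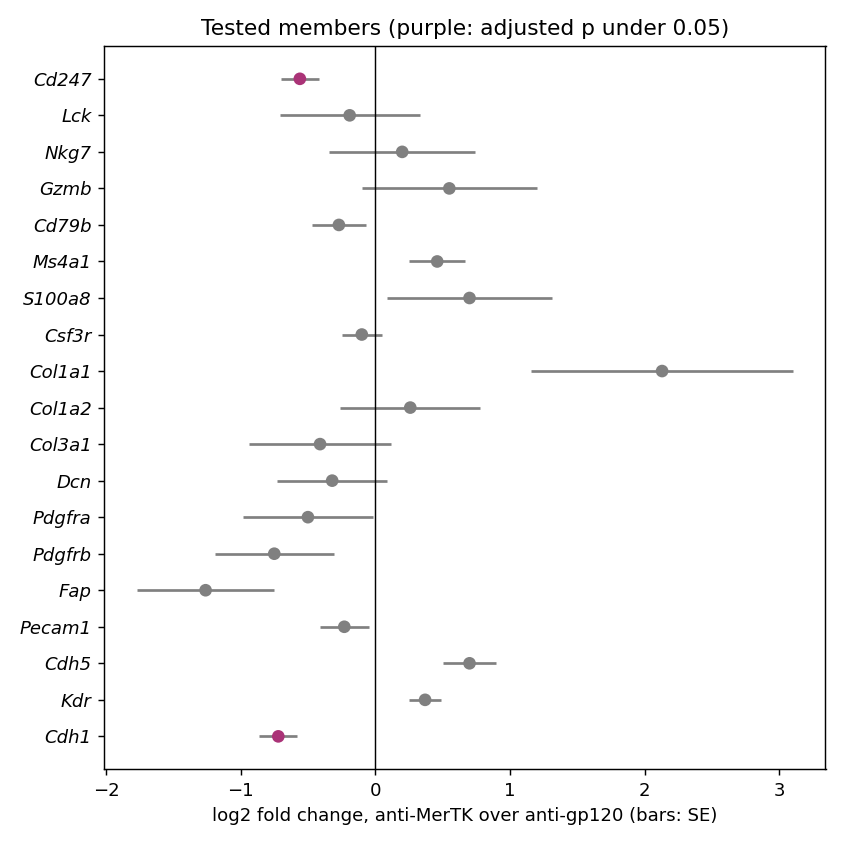
Log2 fold change of anti-MerTK over anti-gp120 for the 19 members that passed the filter, with bars for the SE. Cdh1 at -0.72 and Cd247 at -0.56 passed the test (purple), and the widest bar is that of Col1a1, at 2.13 with an SE of 0.97.

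The epithelial markers are described first, since Cdh1 was the clearest difference. Cdh1 (Entrez 12550, GRCm38 chromosome 8, 106603350 to 106670247) encodes the adhesion molecule of epithelial junctions. Its level was 34.6, 48.9, 59.8, 38.8 and 50.5 CPM in anti-gp120 libraries 1 to 5, and 25.9, 29.3, 25.6, 34.2 and 26.0 CPM in anti-MerTK libraries 1 to 5. Each anti-MerTK library lay below each anti-gp120 library, although the highest of the former, library 4, was close to the lowest of the latter, library 1. The means were 46.5 ± 10.01 and 28.2 ± 3.66 CPM (SD, n = 5 per group), a log2 fold change of -0.72 (SE 0.14, edgeR adjusted p = 0.0244). The call was lost without anti-gp120 replicate 2 (edgeR adjusted p = 0.0584) or without anti-MerTK replicates 1, 2 or 3 (0.0672, 0.0510 and 0.0708), and its log2 fold change stayed between -0.81 and -0.61.

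The other epithelial members were at or near 0 in most libraries. Epcam, a surface glycoprotein of epithelium and carcinoma, had 3, 0, 0, 1 and 5 counts after anti-gp120 and 0, 0, 1, 0 and 4 after anti-MerTK. Krt18, a keratin of simple epithelium, had 0, 6, 1, 1 and 1 counts after anti-gp120 and 5, 0, 1, 0 and 0 after anti-MerTK. So in anti-MerTK library 4 Cdh1 had 1508 counts while Epcam, Krt8 and Krt18 were all at 0. These 3 genes together came to between 0 and 60 counts per library.

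Krt8, the usual partner of Krt18 in keratin filaments, was present in 3 libraries and nearly absent from 7. It had 48, 1, 0, 0 and 2 counts in the anti-gp120 libraries and 0, 41, 2, 0 and 56 in the anti-MerTK libraries. The 3 libraries, anti-gp120 1 and anti-MerTK 2 and 5, belong to both groups. Krt18 was at 0 in each of them. Krt7, another keratin of simple epithelium from the list of further markers, had 34, 6, 1, 5 and 3 counts after anti-gp120 and 0, 107, 3, 3 and 42 after anti-MerTK, so its 3 highest libraries were the same as for Krt8. Krt8, Krt18 and Epcam missed the filter and were not tested. Some further epithelial markers were found mainly after anti-MerTK: the keratin gene Krt19 had 1 count in the anti-gp120 libraries together and 16 in the anti-MerTK libraries, the transcription factor gene Elf3 had 1 and 14, and the splicing factor gene Esrp1 had 0 and 7. Krt19 had 6 counts in each of anti-MerTK libraries 2 and 5, Elf3 had 6 in library 2 and 4 in library 3, and the 7 of Esrp1 were all in library 2. These genes missed the filter, and without it they did not pass (edgeR adjusted p = 0.165, 0.183 and 0.418). Vil1, which encodes villin, had 29 and 23 counts, and Krt20, Cldn4 and Cdx2 had 0 in every library. Without anti-MerTK libraries 2 and 5, Cdh1 had a log2 fold change of -0.70 and did not pass (edgeR adjusted p = 0.0930). Without anti-gp120 library 1 as well, an alternative added after seeing the data, it had -0.79 and passed (edgeR adjusted p = 0.0342).

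**Figure D3:**
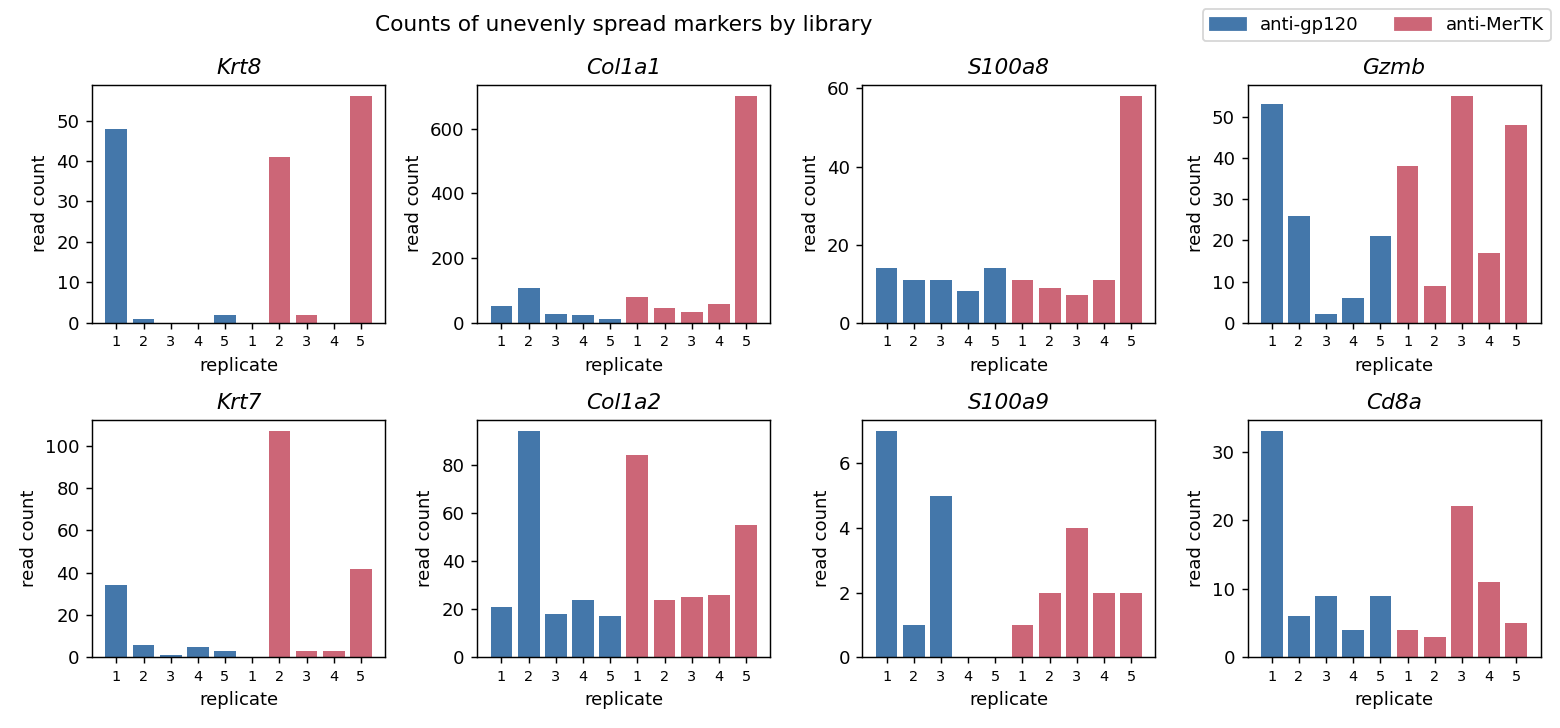
Read counts of 8 unevenly spread markers in each library, with replicates 1 to 5 of anti-gp120 in blue and of anti-MerTK in red. Krt8 and Krt7 share 3 high libraries, whereas Col1a1 and S100a8 peak in anti-MerTK replicate 5 at 701 and 58 counts without Col1a2 and S100a9 doing so.

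Among T cell markers, Cd247 was present at a higher level than the CD3 genes. Cd247 (Entrez 12503, chromosome 1, 165779952 to 165871153) encodes the signalling chain of the T cell receptor and also serves the receptor NKp46 of NK cells. It had 211, 277, 151, 236 and 197 counts after anti-gp120 and 185, 112, 140, 183 and 146 after anti-MerTK. Its level averaged 5.65 ± 0.910 CPM in anti-gp120 and 3.84 ± 0.481 CPM in anti-MerTK libraries (SD, n = 5), and the groups did not overlap. The log2 fold change was -0.56 (SE 0.14, edgeR adjusted p = 0.0483). This call lay at the threshold: it was lost without a filter (edgeR adjusted p = 0.0511) and without anti-gp120 replicates 1, 2 or 4 (0.0654, 0.123 and 0.137). It was also lost without anti-MerTK replicates 1, 2, 3 or 4 (edgeR adjusted p = 0.0820, 0.108, 0.126 and 0.0702).

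The CD3 genes lie together on chromosome 9 and were found only in traces. Cd3d had 16, 8, 13, 3 and 14 counts after anti-gp120 and 5, 2, 11, 5 and 5 after anti-MerTK. Cd3e had 1, 6, 0, 0 and 9 counts, then 4, 2, 0, 2 and 8. Cd3g had 19, 5, 3, 2 and 4 counts, then 4, 2, 11, 4 and 11. All 3 groups of values overlapped between treatments, and none of the CD3 genes passed the filter. On the nRPKM scale the mean over 10 libraries was 0.563 for Cd247, against 0.142, 0.0502 and 0.166 for Cd3d, Cd3e and Cd3g.

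To show what these genes share in sequence, 30 bases around the E-box (CACCTG, or CAGGTG on the other strand) are given for the CD3 chains and Cd247. The E-box is the motif read by E proteins, which act in lymphocyte development. The windows are from RefSeq promoters on GRCm38.p6, 5′ to 3′ on the gene's strand, with the motif in capitals. That of Cd247 belongs to a start site inside the annotated gene, and Cd3g holds 2 matches, of which 1 is shown. The start sites used for Cd3d and Cd3e also lie inside their annotated genes, near the edge. The motif begins at -112, 3, -148 and -10 from the start site for Cd3d, Cd3e, Cd3g and Cd247, so that of Cd3e lies downstream.
Cd3d (chr9:44981662-44981691, plus strand): aagagcagtttgCACCTGtttgtgttttac
Cd3e (chr9:45009591-45009620, minus strand): gtggggttcagaCACCTGcctcccctgtct
Cd3g (chr9:44980562-44980591, minus strand): ctcatcccctgcCACCTGctatcctgcaag
Cd247 (chr1:165788659-165788688, plus strand): gtgtcttgctggCAGGTGctgtctcaaagg
RefSeq gave a promoter of 300 bases for 24 of the 33 members, and 12 of the 24 held this motif on either strand, against 22.6% of the 27025 genes with a promoter in the table. Of the 6 T cell markers 5 held it. The other members that held it were Prf1, Cd79a, S100a9, Cxcr2, Epcam, Krt8 and Krt18. The motif was therefore not particular to T cell markers. GAGGAAGT (ACTTCCTC on the other strand), a sequence bound by the myeloid factor PU.1, was found in 1 of the 24, S100a8, and in 3.69% of all genes. Cdh1, Cd79b and Pecam1 had no promoter among the 24, so neither motif was looked for in them. These matches describe letters, and whether the motif bears on the level of these genes was not tested.

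Cd8a and Lck completed the T cell markers. Cd8a, the coreceptor of cytotoxic T cells, had 33, 6, 9, 4 and 9 counts after anti-gp120 and 4, 3, 22, 11 and 5 after anti-MerTK. Lck, the kinase that phosphorylates CD3 chains, had 30, 18, 4, 3 and 13 counts, then 15, 6, 14, 9 and 18. Both were highest in anti-gp120 library 1, as were Cd3d and Cd3g. Lck had a log2 fold change of -0.19 (SE 0.52, edgeR adjusted p = 0.863), which became 0.35 without anti-gp120 replicate 1. Of 12 further T cell markers 6 were tested and 0 passed. The most abundant were Il7r, the interleukin 7 receptor, at 11.1 to 33.2 nRPKM, and Cd4 at 0.597 to 3.75 nRPKM. Il7r and Cd4 had log2 fold changes of -0.30 and -0.32 (edgeR adjusted p = 0.572 and 0.673).

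Markers of cytotoxic and NK cells varied widely from library to library, and 0 of the 2 tested members passed. Gzmb, a protease of cytotoxic granules, had 53, 26, 2, 6 and 21 counts after anti-gp120 and 38, 9, 55, 17 and 48 after anti-MerTK. Nkg7, a granule membrane protein, had 35, 14, 2, 5 and 16 counts, then 12, 20, 16, 15 and 22. Prf1, the pore former perforin, had 21, 2, 1, 1 and 8 counts, then 6, 5, 20, 11 and 5. All 3 were highest in anti-gp120 library 1 by CPM and lowest or tied for lowest in count in anti-gp120 library 3. The 5 genes of this kind summed to 3.30 CPM in anti-gp120 library 1 and 0.183 CPM in anti-gp120 library 3, an 18-fold range within the control group.

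The log2 fold change of Gzmb was 0.55 (SE 0.65, edgeR adjusted p = 0.663) and that of Nkg7 was 0.20 (SE 0.54, edgeR adjusted p = 0.862). Leaving out anti-gp120 replicate 1 gave 1.25 for Gzmb and 0.87 for Nkg7, and neither passed (edgeR adjusted p = 0.266 and 0.301). Ncr1, which encodes the NK receptor NKp46, had 5 counts over all 10 libraries. Klrb1c, the NK1.1 antigen of C57BL mice, had 11, 10, 1, 6 and 7 counts, then 7, 1, 4, 5 and 16. Klrb1c belongs to a family of similar genes, and only unique alignments were counted, so its level is uncertain. Of 10 further markers of these cells 5 were tested and 0 passed, with 1 at an unadjusted p under 0.05. The highest were Ccl5, a chemokine, at 298 to 814 nRPKM, and Klrk1, the receptor NKG2D, at 6.67 to 33.4 nRPKM. Klrk1 had a log2 fold change of 0.77 (SE 0.27, edgeR adjusted p = 0.144), and it passed with DESeq2 and with limma-voom.

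The B cell markers showed a wide contrast between partners. Cd79b, a subunit of the signalling pair of the B cell receptor, lay between 13.7 and 33.3 nRPKM, with 690, 1167, 1292, 878 and 1275 counts after anti-gp120 and 1250, 919, 867, 1020 and 586 after anti-MerTK. Cd79a, its partner, had 2, 5, 0, 0 and 1 counts, then 0, 2, 0, 0 and 2. Ms4a1, which encodes CD20, had 30, 29, 24, 39 and 26 counts, then 57, 33, 48, 35 and 43. Of the further B cell markers Pax5 had 5 counts in all libraries together and Blk 0. Cd22, a sialic acid binding receptor, was nevertheless present at 2.18 to 4.495 nRPKM.

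Neither tested B cell member passed. Cd79b averaged 28.3 ± 7.75 CPM in anti-gp120 and 23.4 ± 5.49 CPM in anti-MerTK libraries (SD, n = 5), a log2 fold change of -0.27 (SE 0.20, edgeR adjusted p = 0.468). Ms4a1 had 0.789 ± 0.163 and 1.09 ± 0.202 CPM, a log2 fold change of 0.46 (SE 0.21, edgeR adjusted p = 0.238). Ms4a1 exceeded its anti-gp120 mean in 5 of 5 anti-MerTK libraries, and the groups overlapped. Fcrla, an Fc receptor-like protein of the further list, had groups that did not overlap, at 0.512 ± 0.103 and 0.309 ± 0.0803 CPM (SD, n = 5), but did not pass (edgeR adjusted p = 0.140). Of the 28 tested further markers of the 7 kinds of cell, Fcrla was the only 1 without overlap, against 5.97% of all tested genes. Cd22 had a log2 fold change of -0.29 (edgeR adjusted p = 0.354).

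Granulocyte markers were led by Csf3r, the receptor for granulocyte colony stimulating factor, which monocytes also transcribe. The gene had 2098, 3017, 2607, 3307 and 4189 counts after anti-gp120 and 3331, 2801, 2897, 3817 and 2119 after anti-MerTK. Its mean was 80.3 ± 17.1 CPM and 75.2 ± 12.2 CPM (SD, n = 5), with a log2 fold change of -0.10 (SE 0.15, edgeR adjusted p = 0.757). Cxcr2, the chemokine receptor of neutrophils, had 12 counts over all libraries, 7 of them after anti-gp120. Of the further granulocyte markers, Ltf, which encodes lactoferrin, had 79 counts spread over all libraries, with 40 after anti-gp120. Retnlg had 18 counts after anti-gp120 and 44 in the other group, and Mpo, myeloperoxidase, had 20 and 8. Ly6g had 6 counts in all libraries together, Camp 1 and Ngp 0.

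S100a8 and S100a9 encode the subunits of calprotectin and are usually transcribed together at very high levels in neutrophils. S100a8 had 14, 11, 11, 8 and 14 counts after anti-gp120 and 11, 9, 7, 11 and 58 after anti-MerTK. S100a9 had 7, 1, 5, 0 and 0 counts, then 1, 2, 4, 2 and 2. The peak of S100a8 in anti-MerTK library 5 thus came with 2 counts of S100a9. Its log2 fold change of 0.70 (SE 0.61, edgeR adjusted p = 0.541) rested on that library and was -0.39 without it (edgeR adjusted p = 0.493). Mmp9, a gelatinase, and Hdc, histidine decarboxylase, were the highest of 11 further granulocyte markers, at 0.245 to 2.95 and 0.697 to 1.62 nRPKM, and 0 of the 2 tested passed.

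All 7 fibroblast and pericyte markers were tested and 0 passed in edgeR, with 1 at an unadjusted p under 0.05 and 0 with limma-voom. DESeq2 called 0 of the 5 for which it gave an adjusted p, which did not include Col1a1 and Fap. Col3a1, a fibrillar collagen, had 557, 745, 113, 207 and 240 counts after anti-gp120 and 232, 78, 424, 218 and 495 after anti-MerTK. Dcn, the proteoglycan decorin, had 160, 236, 66, 66 and 125 counts, then 70, 48, 148, 84 and 186. For both genes anti-gp120 libraries 1 and 2 and anti-MerTK libraries 3 and 5 were the 4 with the highest counts, and the groups overlapped. The log2 fold change was -0.41 for Col3a1 (SE 0.53, edgeR adjusted p = 0.698) and -0.32 for Dcn (SE 0.41, edgeR adjusted p = 0.689). Pdgfra and Pdgfrb, receptors for platelet-derived growth factors in fibroblasts and pericytes, had 7 to 48 and 4 to 57 counts per library.

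Fap, the fibroblast activation protein, had the largest negative estimate among the tested members. Its counts were 22, 32, 23, 26 and 10 after anti-gp120 and 14, 0, 10, 9 and 17 after anti-MerTK. The log2 fold change was -1.26 (SE 0.51, edgeR adjusted p = 0.184). Fap was under its anti-gp120 mean in 5 of 5 anti-MerTK libraries, and the only anti-gp120 library within their range was library 5. Of 12 further stromal markers 10 were tested and 0 passed, and Mmp2 and Col6a1 were the highest in mean CPM, with log2 fold changes of -0.59 and -0.87 (edgeR adjusted p = 0.462 and 0.405). Sparc, a matrix protein that exceeded Col6a1 in mean nRPKM, had 0.12 (edgeR adjusted p = 0.876).

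Col1a1 departed from its partner in 1 library. It had 51, 106, 26, 23 and 10 counts after anti-gp120 and 79, 46, 33, 57 and 701 after anti-MerTK. Col1a2 had 21, 94, 18, 24 and 17 counts, then 84, 24, 25, 26 and 55. The ratio of Col1a1 to Col1a2 in nRPKM was 0.642 to 2.65 in the other 9 libraries and 13.9 in anti-MerTK library 5. There Col1a1 also exceeded Col3a1, by 1.67 times in nRPKM, while it lay below Col3a1 in the other 9, at ratios up to 0.697. The log2 fold change of Col1a1 was 2.13 (SE 0.97, edgeR adjusted p = 0.244) with all libraries and 0.24 without anti-MerTK replicate 5. Col1a2 had a log2 fold change of 0.26 (SE 0.52, edgeR adjusted p = 0.804), which became 0.97 without anti-gp120 replicate 2.

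Endothelial markers included the next clearest positive estimates. Cdh5, which encodes VE-cadherin of endothelial junctions, was at 1.40, 1.78, 1.01, 2.08 and 1.35 CPM in anti-gp120 libraries 1 to 5 and at 3.15, 2.47, 2.61, 2.11 and 2.09 CPM in anti-MerTK libraries 1 to 5. Every anti-MerTK library lay above every anti-gp120 library, by a narrow margin between anti-MerTK library 5 and anti-gp120 library 4. With a log2 fold change of 0.70 (SE 0.20), Cdh5 missed the threshold in edgeR (adjusted p = 0.0797) and passed in DESeq2 (adjusted p = 0.0198). Kdr, the receptor VEGFR2, was at 5.601, 5.83, 5.09, 7.30 and 6.99 CPM after anti-gp120 and at 7.19, 7.34, 7.65, 8.45 and 9.30 CPM after anti-MerTK. Of the anti-MerTK libraries 4 exceeded all anti-gp120 libraries. Its log2 fold change was 0.37 (SE 0.12, edgeR adjusted p = 0.109).

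**Figure D4:**
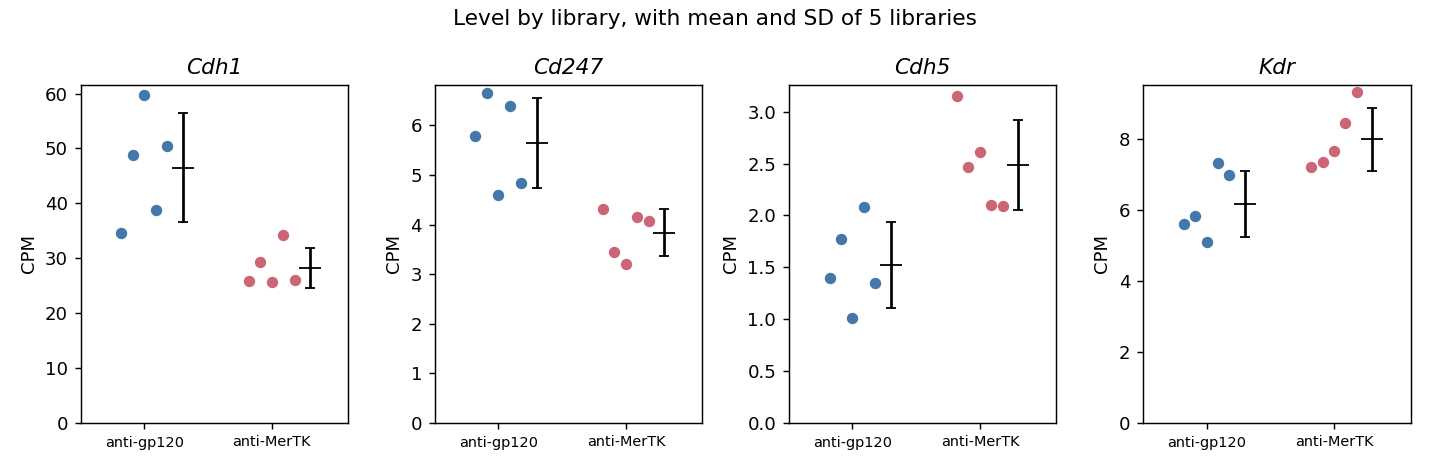
Levels of Cdh1, Cd247, Cdh5 and Kdr in CPM for each library (points), with the mean and SD of 5 libraries per group (black). Cdh1 and Cd247 lie lower in every anti-MerTK library, Cdh5 lies higher in every one, and Kdr overlaps.

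The summed level of Cdh5, Kdr and Tek was 6.10 to 9.385 CPM after anti-gp120 and 9.81 to 11.4 CPM in the other group, without overlap, a sum chosen after the values were seen. Over all 4 endothelial members the sums overlapped, at 106.1 ± 17.9 and 94.6 ± 22.4 CPM (SD, n = 5), since Pecam1 makes up most of them. Pecam1, which encodes the adhesion molecule CD31 of endothelium, leukocytes and platelets, averaged 98.4 ± 17.8 CPM in anti-gp120 and 84.1 ± 22.75 CPM in anti-MerTK libraries (SD, n = 5). The log2 fold change of Pecam1 was -0.23 (SE 0.18, edgeR adjusted p = 0.515). Tek, the angiopoietin receptor TIE2, had 1 count in 1 of the 10 libraries. Among 10 further endothelial markers, 3 were tested and 0 passed. Flt1, the receptor VEGFR1, had a log2 fold change of 0.76 (SE 0.30, edgeR adjusted p = 0.173) and Vwf, von Willebrand factor, of -0.49 (SE 0.17, edgeR adjusted p = 0.128). Cldn5, the claudin of endothelial junctions, had 3 counts in all libraries together, 2 of them after anti-gp120. Plvap had 10, with 6 after anti-gp120. Tie1 had 31 counts after anti-gp120 and 20 in the other group, Emcn had 8 and 4, and Robo4 had 1 and 3. Esam, an endothelial adhesion molecule, had 6 counts after anti-gp120 and 35 in the other group, and Erg, a transcription factor of endothelium, had 0 and 9. Neither reached the filter, and without it neither passed (edgeR adjusted p = 0.151 and 0.266).

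Over the 73 further markers of the 7 kinds of cell, 28 passed the filter and 0 were called in edgeR (5 at an unadjusted p under 0.05, and 1 each with DESeq2 and limma-voom, Klrk1). Their median log2 fold change was -0.29. The macrophages' own markers and those of monocytes are given beside these. Of 12 macrophage markers 1 was higher, Fcgr1, with a log2 fold change of 0.64 (edgeR adjusted p = 0.0247), and their summed level was 37630 to 50100 CPM in anti-gp120 and 38700 to 46520 CPM in anti-MerTK libraries. Of 8 monocyte markers 1 was higher, Plac8, with a log2 fold change of 2.37 (edgeR adjusted p = 0.0346). All 8 estimates were positive, against 6654 of all 13588 tested genes. That of Chil3 was 0.01, and 4 of 5 anti-MerTK libraries lay below its anti-gp120 mean. The most abundant in CPM were Ccr2, a chemokine receptor, with a log2 fold change of 0.55 (edgeR adjusted p = 0.165), and F13a1, a coagulation factor, with 0.33 (edgeR adjusted p = 0.751). Their summed level was 161 to 456 CPM in anti-gp120 and 383 to 645 CPM in anti-MerTK libraries. The part of this difference in those of Cdh1 and Cd247 was not tested.

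Single libraries held many of the highest values. By CPM, anti-gp120 library 1 was the highest of 10 for 8 members, including Cd3d, Cd3g, Cd8a, Lck, Nkg7, Gzmb and Prf1. Anti-gp120 library 2 was the highest for 10, including Col1a2, Col3a1, Dcn, Pdgfra, Pdgfrb and Fap. Anti-MerTK library 5 was the highest for 7, including S100a8, Col1a1 and Krt8. The maxima numbered 8, 10, 2, 1 and 3 in the anti-gp120 libraries and 2, 0, 0, 0 and 7 in the anti-MerTK libraries. Some rest on few counts, such as 1 for Tek and 4 for Cxcr2. The same was not counted over all tested genes, so these numbers are a description.

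With the 4 abundant genes set aside, the summed level of the other 29 members was 45.8, 49.5, 21.4, 28.97 and 27.7 CPM in the anti-gp120 libraries and 30.4, 23.9, 34.4, 27.5 and 66.3 CPM in the anti-MerTK libraries. The means were 34.7 ± 12.25 and 36.5 ± 17.1 CPM (SD, n = 5). Their difference was smaller than the SD of either group. For the 7 stromal members alone the sums were 17.2 ± 10.2 and 17.3 ± 14.4 CPM (SD, n = 5), with the highest value, 42.3 CPM, in anti-MerTK library 5. The difference of anti-MerTK minus anti-gp120 was 0.0970 CPM with all libraries and -6.17 CPM without that library. Of the sums over all members of a kind, abundant genes included, only those of T cells and epithelium did not overlap between groups. For T cells they were 5.49 to 8.51 CPM after anti-gp120 and 3.92 to 5.38 CPM after anti-MerTK. For epithelium they were 36.0 to 59.8 and 25.7 to 34.2 CPM. Cd247 and Cdh1 made up most of these sums.

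The spread between libraries differed widely among the members. The biological coefficient of variation, edgeR's estimate of the relative spread between libraries beyond counting error, had a median of 0.133 over all tested genes, and 10% of tested genes lay above 0.296. It was 0.162 for Cdh1, 0.156 for Cd247, 0.141 for Kdr, 0.174 for Csf3r, 0.192 for Ms4a1, 0.207 for Pecam1 and 0.226 for Cd79b. It was 0.442 to 0.950 for the 7 stromal members, with Col1a1 highest, and 0.707 for Gzmb. All 19 tested members lay above the median and 11 above 0.296. Low counts go with a higher coefficient among all genes, as the plot of spread against level shows, so the members' position is a description.

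**Figure D5:**
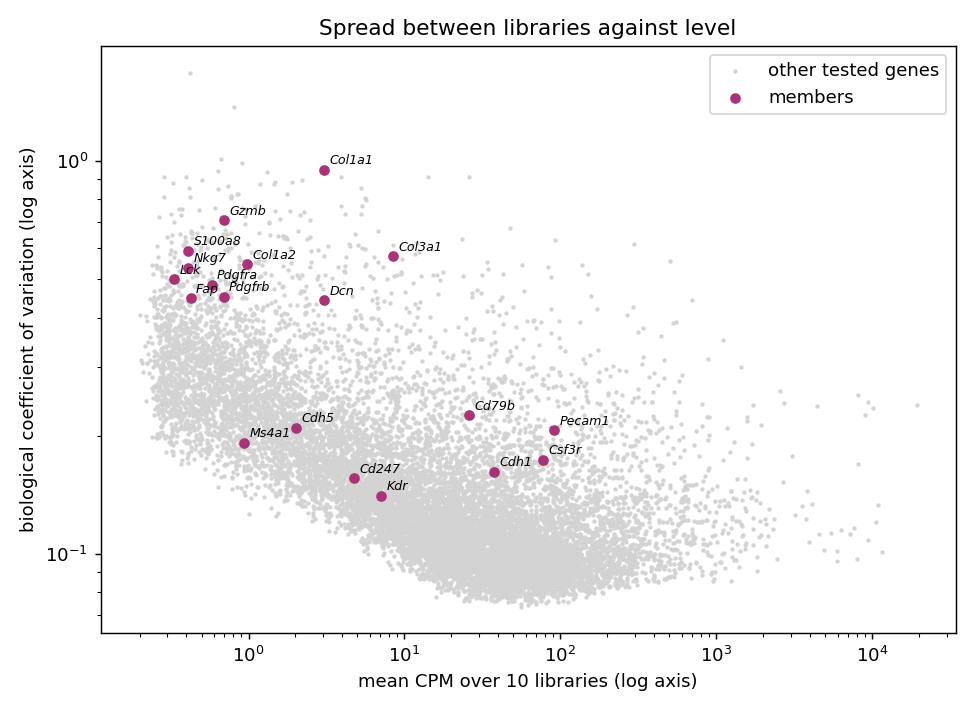
Biological coefficient of variation against mean CPM (both log axes) for the 19 tested members (purple, named) and the other tested genes (grey). Cd247, Kdr, Cdh5 and Ms4a1 lie within the main band for their level, and Col1a1 at 0.950, Col3a1 and Gzmb lie above it.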

How the data were processed

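Polyadenylated RNA of 10 libraries was sequenced, 5 per treatment. Reads were aligned with GSNAP to GRCm38, per the submitters' processing notes; the sources used here do not give its version, the annotation, the counter or the strand setting. The deposited counts are, per the file headers, uniquely aligned reads per gene model. The deposited RPKM values (nRPKM) carry, per the file headers, a library size factor; they equalled count times a gene and a library factor to within 9.8e-15 and serve here to compare levels between genes.

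Entrez identifiers were named from RefSeq's GRCm38.p6 table (31049 of 36528). All 36528 genes entered library sizes. The filter filterByExpr left 13588 genes, tested with edgeR 4.0.16 (R 4.3.3, limma 3.58.1): quasi-likelihood, TMM, robust dispersions, treatment as the only term, Benjamini-Hochberg adjustment at 0.05. The SE is the log2 fold change divided by the square root of F. CPM uses TMM sizes. No 2 libraries agreed within sampling noise (smallest chi-square per degree of freedom 29). The script was tested on simulated data.

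The members and lists were chosen with earlier results of these data known. Named are all 33 members, genes of the labelled cell, and per list of further markers the 2 of highest mean CPM and those that passed; others (such as Krt19, Pax5 and Esam) were named after their values were seen. Alternatives were RLE, upper quartile and the authors' size factors, no filter, 1 CPM in 5 libraries, DESeq2 1.42.0, limma-voom, leaving out each library, 8 libraries (without anti-MerTK 2 and 5) and an adjusted p under 0.01. Added after seeing the data was a fit on 7 libraries, also without anti-gp120 1.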

Additional observations from a re-analysis of the deposited data

Results flagged for a closer look

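In 50 combinations of member and group with at least 10 counts in the highest library, the distance of the extreme library from its nearest neighbour was set against the range of the 5 libraries. 6 of them stood out, where chance gives about 1 in 20 for normally distributed values. Low counts are skewed to the high side, so that share is no measure for these. Krt8 in anti-gp120 library 1 was at 1.32 CPM, with the next library at 0.0490 CPM. Col1a1 in anti-MerTK library 5 was at 19.5 CPM, with the next at 1.84 CPM. S100a8 in the same library was at 1.62 CPM, with the next at 0.278 CPM. Col1a2 in anti-gp120 library 2 was at 2.255 CPM, with the next at 0.649 CPM. Cd3g and Cd8a in anti-gp120 library 1 were at 0.522 and 0.906 CPM, with the next at 0.120 and 0.275 CPM. All 6 lay on the high side.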

How the results depend on the processing

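No paired analysis was possible because the replicate numbers only follow the order of deposition. Of 33 members, 1 changed without a filter, 0 with 8 libraries, 1 with 7 libraries and 0 at an adjusted p under 0.01, and 0 to 2 with single libraries left out. Over all genes, 1152 changed with DESeq2, 1036 with limma-voom, 204 with 8 libraries, 266 with 7 and 15 at an adjusted p under 0.01, and 70 (without anti-gp120 replicate 4) to 654 with single libraries left out. Of the 73 further markers, 1 changed with DESeq2 and with limma-voom (Klrk1) and with 7 libraries (Flt1), and 0 to 1 with single libraries left out. The cause of these moves was not tested. Cdh1 did not pass with 8 libraries (log2 fold change -0.70, edgeR adjusted p = 0.0930), nor did Cd247 with 8 or 7 (-0.54 and -0.53, edgeR adjusted p = 0.142 and 0.157). Over its 19 alternatives Cdh1 passed in 14, with adjusted p from 0.00012 to 0.0930, and Cd247 in 9, from 0.00548 to 0.157. Estimates changed sign for Lck (0.16 with limma-voom, 0.25 with 7 libraries), S100a8 (-0.13 with limma-voom, -0.47 with 8 libraries, -0.38 with 7) and Nkg7 (-0.20 with 8 libraries). With single libraries left out, estimates ranged from -0.44 to 0.35 for Lck, -0.05 to 0.87 for Nkg7, -0.39 to 0.94 for S100a8, -0.07 to 0.97 for Col1a2 and -0.20 to 0.01 for Csf3r. None of these 5 genes passed in the settings that gave an adjusted p, which for Lck, Nkg7 and S100a8 did not include DESeq2. The summed levels of the 7 kinds of cell moved by less than their SD with RLE, with the authors' size factors and with each library left out, but signs turned: the difference of anti-MerTK minus anti-gp120 ranged from -6.17 to 3.71 CPM for fibroblasts and pericytes and from -10.6 to 0.619 CPM for granulocytes (0.619 without anti-gp120 replicate 5). For the other kinds this difference kept its sign with each library left out. It ranged from -2.48 to -1.73 CPM for T cells and from -20.8 to -14.8 CPM for epithelium. At this depth, 14 members missed the filter.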
